A study of Mus musculus with 12 samples.

Results

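Endothelial cells form the inner lining of blood vessels, and 38 genes known as endothelial were followed here in bulk RNA sequencing of mouse pancreatic islets. The genes were taken by name, for junctions, receptors, transcription factors, surface and secreted proteins of this cell type, and not by a threshold on measured values. Earlier results of these data were known when they were chosen. Every one is among the 24421 gene symbols counted in each library, and all 38 passed the filter on low counts that left 13583 genes for testing. Of the 12 islet libraries, 6 came from Il22ra1βKO mice (here BKO), in which by its name the interleukin-22 receptor subunit Il22ra1 is knocked out in β cells, the insulin-producing cells. The other 6 came from Ins2Cre mice (here Cre), a strain named for a Cre recombinase driven from the insulin 2 gene. The labels do not say which Cre made the knockout or give any other allele. Both groups had been fed a high-fat diet for 6 weeks, and no group on another diet was analysed here. The labels give no age, sex, batch or islet yield, and do not say whether each library is 1 animal. The p-values therefore rest on the spread from library to library, which may be technical. The deletion is aimed at β cells, and the labels do not describe endothelial cells as targeted. Which cells of the islets the counted transcripts came from was not measured.

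Islets are among the most densely vascularised endocrine tissues. Their capillaries are fenestrated, which lets hormones pass quickly into the blood, and islet endothelium depends on vascular growth factors released by β cells. Endothelial cells hold together through VE-cadherin and PECAM-1 at their junctions, keep their identity through ETS and SOX transcription factors, and signal through receptors such as TIE1, endoglin and the sphingosine 1-phosphate receptor. They also release vasoactive products, among them endothelin and nitric oxide.

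The libraries held between 10356093 and 11902217 gene-assigned reads in BKO and between 11444273 and 12397139 in Cre. Islet hormone genes were abundant in every library, and Ins2 averaged 71213 ± 14568 CPM (read counts set to a common library size and scaled by the TMM method of edgeR) in BKO and 74804 ± 8545 CPM in Cre islets (SD, n = 6 each). Ins1 averaged 25632 ± 4145 CPM in BKO, against 29546 ± 4181 CPM in Cre. The glucagon gene Gcg averaged 17144 ± 4290 CPM in BKO, against 11508 ± 1689 CPM in Cre. All 6 BKO libraries lay above the Cre mean for Gcg (log2 fold change 0.58 ± 0.15 SE, adjusted p = 0.159 by edgeR). Il22ra1 itself had between 1 and 5 reads in every library, 0.197 ± 0.0908 CPM in BKO, against 0.223 ± 0.153 CPM in Cre, so a difference in the targeted gene was not detectable at this depth. Library Cre-1 stood apart with 27.3% of its reads set aside for low alignment quality, against 16.7% to 22.2% in the other 11. Members of the list had between 8 reads (Aplnr in Cre-4) and 7815 reads (Ece1 in Cre-6).

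Sequence upstream of the start site is given for 6 members that span the differences between genotypes reported here. These are Egfl7, Eng, Emcn and Edn1, which had positive fold changes of varied size, and Ece1 and Esm1. Ece1 was the only member with a negative fold change, and Esm1 was 1 of several with a small positive one. Each line holds the 250 bases before a RefSeq start (build GRCm38.p6), read 5′ to 3′ on the strand of the gene, which is the plus strand for all 6. Capitals mark AGGAAG or CGGAAG on either strand, letters that match the binding motif of ETS factors such as ERG, FLI1 and ETS1.
Egfl7 (chr2:26583615-26583864): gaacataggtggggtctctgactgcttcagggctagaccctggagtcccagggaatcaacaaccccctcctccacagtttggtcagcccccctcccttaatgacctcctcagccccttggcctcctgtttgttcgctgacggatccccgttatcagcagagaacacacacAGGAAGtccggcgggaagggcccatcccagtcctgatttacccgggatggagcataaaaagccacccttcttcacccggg
Eng (chr2:32646345-32646594): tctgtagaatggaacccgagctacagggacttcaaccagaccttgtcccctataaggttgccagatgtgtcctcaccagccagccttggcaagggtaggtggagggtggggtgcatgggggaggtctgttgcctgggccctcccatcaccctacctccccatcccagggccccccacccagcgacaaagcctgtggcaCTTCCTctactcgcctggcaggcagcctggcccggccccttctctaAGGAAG
Emcn (chr3:137340828-137341077): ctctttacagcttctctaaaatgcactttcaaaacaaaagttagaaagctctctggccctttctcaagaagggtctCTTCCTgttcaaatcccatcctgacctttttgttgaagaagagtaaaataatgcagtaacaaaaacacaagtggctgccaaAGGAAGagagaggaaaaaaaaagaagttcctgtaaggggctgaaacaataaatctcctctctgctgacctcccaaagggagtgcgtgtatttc
Edn1 (chr13:42301226-42301475): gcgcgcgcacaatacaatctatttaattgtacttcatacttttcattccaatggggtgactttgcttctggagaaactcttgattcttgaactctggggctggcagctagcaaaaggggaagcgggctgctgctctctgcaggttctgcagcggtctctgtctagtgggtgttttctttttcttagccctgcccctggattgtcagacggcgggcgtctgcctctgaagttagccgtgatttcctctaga
Esm1 (chr13:113209409-113209658): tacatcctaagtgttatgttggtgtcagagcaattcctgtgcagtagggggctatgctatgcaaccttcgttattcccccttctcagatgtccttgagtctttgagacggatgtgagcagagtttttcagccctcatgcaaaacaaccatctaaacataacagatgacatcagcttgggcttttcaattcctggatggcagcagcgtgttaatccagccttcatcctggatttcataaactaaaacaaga
Ece1 (chr4:137861987-137862236): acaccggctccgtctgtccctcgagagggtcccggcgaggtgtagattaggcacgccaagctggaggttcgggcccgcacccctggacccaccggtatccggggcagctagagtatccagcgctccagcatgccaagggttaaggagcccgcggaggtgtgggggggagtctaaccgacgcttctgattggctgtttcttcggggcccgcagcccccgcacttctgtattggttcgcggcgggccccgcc
RefSeq windows were matched for 17 of the 38 members, 25 windows in all because some genes have several starts. An ETS match stood in 11 of the 25 windows (44.0%), against 39.2% of 32851 promoter windows of the same length. ACAAT, core letters bound by SOX factors, stood on either strand in 32.0% of the 25 and 27.7% of all windows. AGATAA, letters bound by GATA factors, stood in 3 of the 25 and in 9.99% of all windows. These shares lay close to those of all promoters. Among the windows shown, Emcn and Eng held 2 ETS matches each and that of Egfl7, 1 of its 3 starts, held 1, while those of Edn1, Esm1 and Ece1 held none. The Ece1 window is 1 of 4, of which another, at chr4:137913308-137913557, held 1 ETS match. The Edn1 window held 4 ACAAT matches. Egfl7, on chromosome 2 from 26580014 to 26593120, also carries the microRNA gene Mir126a, whose product was not measured here.
mmu-miR-126a-3p (seed, bases 2 to 8, in capitals): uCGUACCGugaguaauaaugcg

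Mean levels of the endothelial genes were higher in BKO islets almost throughout the list, although no single gene passed the edgeR test over all genes. The list was chosen with earlier results of these data known, so its counts are a description and not independent support. Of the 38 members, 37 had a positive log2 fold change (BKO over Cre), against 52.8% of all genes tested. The median was 0.40, a fold of 1.32, beside a median of 0.0078 over all 13583 genes. With the mean level of pericyte markers as a covariate the median was 0.21, and 32 of 38 were positive. In the quasi-likelihood test of edgeR, with p-values adjusted by Benjamini and Hochberg's method over all genes, 0 members were called higher and 0 lower at an adjusted p under 0.05, as were 0.0% of all genes in either direction. At an unadjusted p under 0.05, 29 members were higher and 1 was lower, where the shares over all genes were 8.7% and 4.66%. DESeq2 on the same counts called 15 members higher and 0 lower, against 1.12% and 0.379% of the 14237 genes it adjusted. Run with quality weights for each library, limma-voom called 0 members and 0.0% of all genes in either direction. In 34 members at least 5 of the 6 BKO libraries lay above the Cre mean, a count for which the share over all genes was not taken. CPM gives shares of all the RNA in a library. In whole islets, more endothelial cells, more RNA of these genes per cell and less RNA from other cells therefore cannot be told apart.

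**Figure D1:**
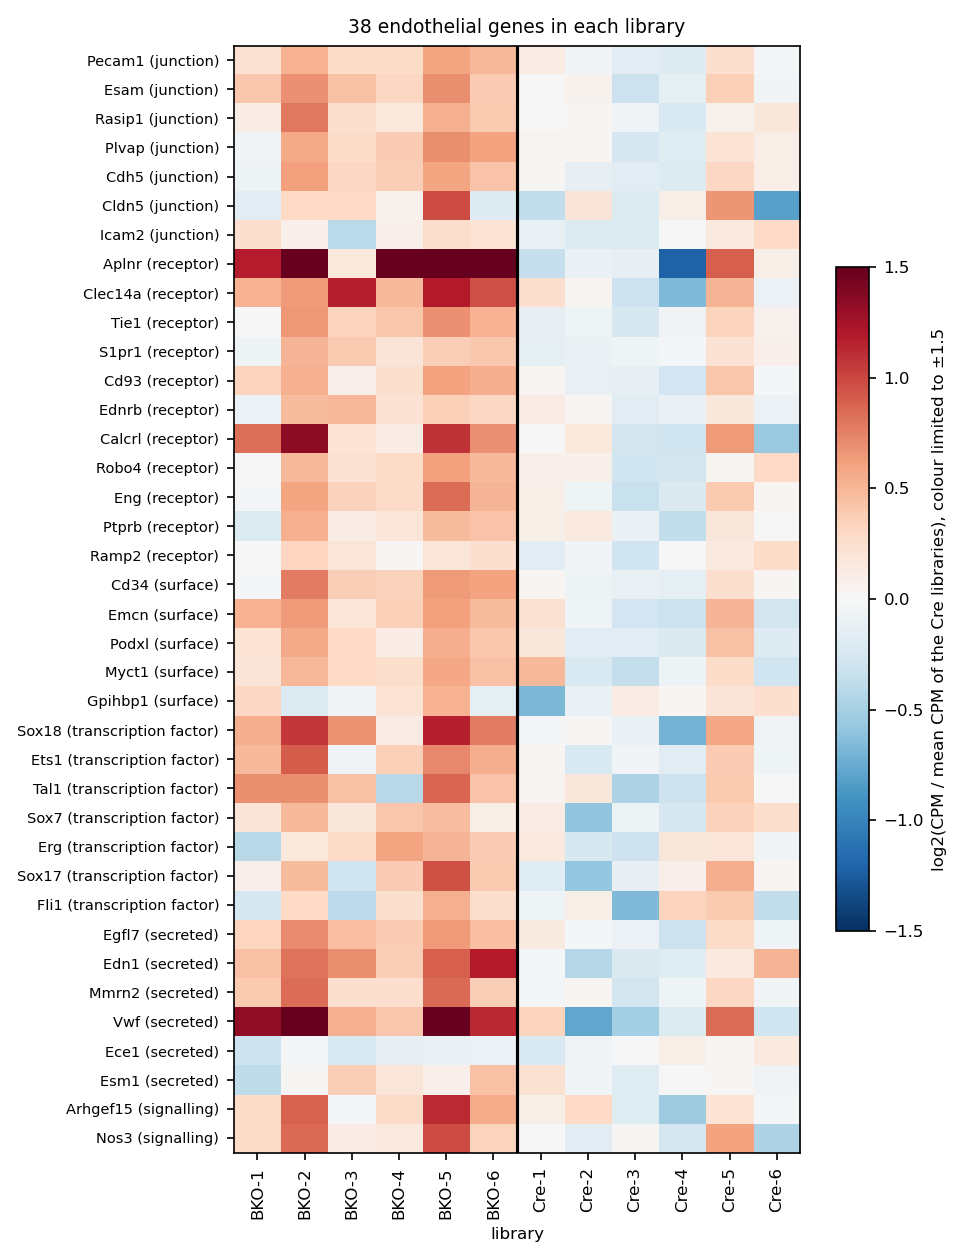
Colour gives log2 of each library's CPM over the mean CPM of the 6 Cre libraries, for 38 endothelial genes (rows, by role) in the BKO libraries (left of the line) and the Cre libraries (right). BKO-2 and BKO-5 are red in most rows, Cre-5 is the reddest Cre library, and Ece1 is pale throughout.

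Per kilobase of exon, the scale on which genes can be compared, member levels were spread widely. Ece1, the enzyme that cuts big endothelin into active endothelin and is also made outside endothelium, was the most abundant at 99.96 ± 7.07 CPM per kilobase in BKO and 110 ± 9.57 in Cre islets (SD, n = 6 each). Esm1, an endothelial proteoglycan also called endocan, followed at 52.8 ± 10.1 in BKO and 47.8 ± 4.61 in Cre. Plvap, which forms the diaphragms of fenestrae, came next at 42.1 ± 7.54 in BKO and 31.2 ± 3.70 in Cre, a level whose spread overlapped that of Esm1 in BKO. Cdh5 (29.0 ± 4.66 in BKO, 22.1 ± 3.16 in Cre) and Eng (26.5 ± 5.36 in BKO, 19.4 ± 3.55 in Cre) followed and did not differ from each other beyond their spread. The lowest in BKO was Arhgef15, a signalling gene, at 0.556 ± 0.169 in BKO and 0.375 ± 0.0727 in Cre, which did not differ beyond its spread from the blood and endothelial transcription factor Tal1 at 0.568 ± 0.151 in BKO and 0.399 ± 0.0853 in Cre. The lowest in Cre was the long transcript of Vwf, at 0.717 ± 0.256 in BKO and 0.311 ± 0.139 in Cre. Without the length correction, Ece1 alone took 30.1% of the summed CPM of the 38 members in BKO and 38.5% in Cre. The other 37 members summed to 1237 ± 163 CPM in BKO, against 940 ± 116 CPM in Cre, and single libraries ran from 1004 to 1422 CPM in BKO and from 828 to 1141 CPM in Cre. The groups overlapped in this sum through Cre-5, whose 1141 CPM exceeded BKO-1 (1004 CPM) and BKO-4 (1140 CPM).

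Among the 7 junction and barrier genes all had positive fold changes, with a median log2 fold change of 0.39, and 5 had an unadjusted p under 0.05. All gene positions here are on GRCm38, with the strand named where it is minus. Pecam1, the homophilic adhesion molecule that marks endothelium (chromosome 11, 106654217 to 106750628, minus strand), had 99.1, 110 and 127 CPM as the lowest, median and highest BKO library, against 74.0, 82.5 and 101 CPM in Cre. The groups touched at 1 library each, Cre-5 above BKO-1. Its log2 fold change was 0.40 ± 0.081 (SE), with an adjusted p of 0.121 by edgeR and 0.00776 by DESeq2. Esam, an immunoglobulin-type protein of endothelial tight junctions (chromosome 9, 37528078 to 37538319), had a lowest, median and highest value of 25.1, 27.1 and 32.8 CPM in BKO, against 16.2, 20.001 and 26.0 CPM in Cre. Here too only Cre-5 reached the BKO range, and the log2 fold change was 0.49 ± 0.10 (adjusted p = 0.121 by edgeR, 0.0101 by DESeq2). Rasip1, a Rap1 and Ras effector needed for vessel lumens (chromosome 7, 45627488 to 45639093), had 27.5, 31.7 and 43.9 CPM in BKO, against 21.7, 25.4 and 28.7 CPM in Cre. Only Cre-6 lay inside the BKO range of Rasip1, and its log2 fold change was 0.39 ± 0.10 (adjusted p = 0.156 by edgeR, 0.0554 by DESeq2). Plvap was at 83.7 ± 15.0 CPM in BKO, against 62.0 ± 7.34 CPM in Cre, with a log2 fold change of 0.43 ± 0.12, and was called by DESeq2 (adjusted p = 0.0348). Cdh5, which encodes VE-cadherin, was at 122 ± 19.6 CPM in BKO, against 92.9 ± 13.3 CPM in Cre, with a log2 fold change of 0.39 ± 0.11 and an adjusted p of 0.055 by DESeq2. The other 2 junction genes lay under 6 CPM and their fold changes were about 1 standard error or less. The tight junction protein Cldn5 was at 4.41 ± 1.47 CPM in BKO, against 3.65 ± 1.28 CPM in Cre (0.27 ± 0.24), and the leukocyte-binding Icam2 at 5.56 ± 0.865 CPM in BKO, against 5.20 ± 0.744 CPM in Cre (0.10 ± 0.14).

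**Figure D2:**
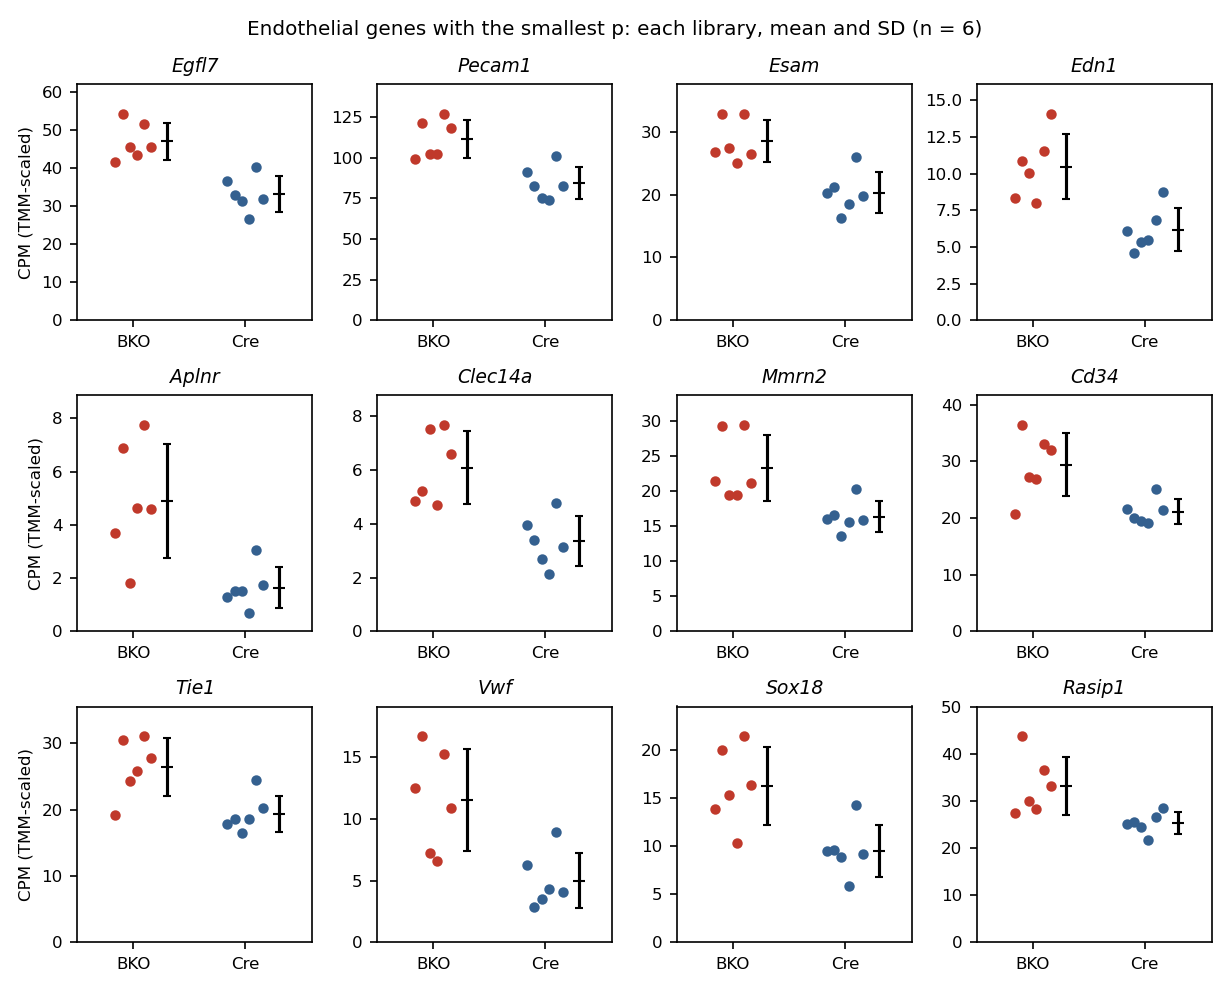
Each panel plots the TMM-scaled CPM of 1 endothelial gene in the 6 BKO libraries (red, left) and the 6 Cre libraries (blue, right), with the mean and SD in black, for the 12 members with the smallest p. The groups are apart only for Egfl7 (lowest BKO 41.6 CPM, highest Cre 40.3 CPM).

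The 11 receptors and receptor partners all had positive fold changes, with a median log2 fold change of 0.40, and 10 had an unadjusted p under 0.05. Aplnr, the apelin receptor, which is found on veins and sprouting capillaries (chromosome 2, 85136225 to 85139923), had the highest fold change of the list. Its lowest, median and highest values were 1.83, 4.61 and 7.75 CPM in BKO, against 0.706, 1.52 and 3.05 CPM in Cre. BKO-3 was the lowest BKO library and Cre-5 the highest Cre library, and these were the only libraries to overlap. The log2 fold change was 1.57 ± 0.34 (adjusted p = 0.121 by edgeR, 0.00521 by DESeq2). Clec14a, a C-type lectin of endothelium that binds the matrix protein multimerin 2 (chromosome 12, 58264720 to 58269290, minus strand), had 4.70, 5.89 and 7.66 CPM in BKO, against 2.12, 3.28 and 4.77 CPM in Cre. Only Cre-5 reached the lowest BKO library, BKO-4, and the log2 fold change was 0.85 ± 0.19 (adjusted p = 0.125 by edgeR, 0.0133 by DESeq2). Tie1, an orphan receptor tyrosine kinase that modulates angiopoietin signalling (chromosome 4, 118471191 to 118490061, minus strand), had 19.2, 26.8 and 31.1 CPM in BKO, against 16.4, 18.6 and 24.4 CPM in Cre. BKO-1 and BKO-3 lay under Cre-5 for Tie1 and the other 4 BKO libraries above every Cre library, and the log2 fold change was 0.45 ± 0.11 (adjusted p = 0.148 by edgeR, 0.0375 by DESeq2).

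The remaining receptors followed with smaller or less certain differences. Calcrl, which pairs with RAMP2 to form the adrenomedullin receptor, was at 10.2 ± 3.33 CPM in BKO, against 5.95 ± 1.87 CPM in Cre (log2 fold change 0.77 ± 0.23). Its partner Ramp2 was at 9.33 ± 0.835 CPM in BKO, against 8.33 ± 1.21 CPM in Cre (0.16 ± 0.11), the receptor gene with the lowest fold change. Endoglin, Eng, a coreceptor for BMP ligands, was at 107 ± 21.7 CPM in BKO, against 78.5 ± 14.4 CPM in Cre (0.45 ± 0.15), and Cd93, which shares the ligand multimerin 2 with CLEC14A, at 65.6 ± 9.05 CPM in BKO, against 49.8 ± 8.77 CPM in Cre (0.40 ± 0.11; adjusted p = 0.169 by edgeR, 0.0496 by DESeq2). S1pr1, the sphingosine 1-phosphate receptor that stabilises vessels, was at 56.1 ± 7.69 CPM in BKO, against 45.2 ± 4.18 CPM in Cre (0.31 ± 0.087). Fold changes near that of S1pr1 were seen in the last 3 receptors. Ednrb, an endothelin receptor, was at 58.1 ± 8.13 CPM in BKO, against 47.0 ± 4.42 CPM in Cre (0.31 ± 0.089). The guidance receptor Robo4 was at 33.0 ± 4.93 CPM in BKO, against 25.6 ± 4.03 CPM in Cre (0.36 ± 0.11). Ptprb, a phosphatase that acts on TIE2 and VE-cadherin complexes, was at 32.7 ± 5.96 CPM in BKO, against 27.0 ± 3.58 CPM in Cre (0.27 ± 0.12). Of these 8 genes, DESeq2 called Cd93.

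Secreted products and their processing enzymes were the only role group with fold changes on both sides of 0. Of its 6 genes, 5 had a positive log2 fold change and the median was 0.51. Egfl7, a secreted factor that guides vessel sprouting, was the member with the smallest p. Its BKO libraries had 41.6, 45.6 and 54.1 CPM as the lowest, median and highest value, against 26.5, 32.4 and 40.3 CPM in Cre, so that the groups did not overlap. The log2 fold change was 0.50 ± 0.091 (adjusted p = 0.121 by edgeR, 0.00418 by DESeq2). It was the only member of the 38 whose groups did not overlap, where 0.331% of all genes tested had every BKO library above every Cre library. Edn1, the endothelin precursor (chromosome 13, 42301476 to 42307990), had 8.01, 10.5 and 14.1 CPM in BKO, against 4.60, 5.79 and 8.78 CPM in Cre. Only Cre-6 lay inside the BKO range, and the log2 fold change was 0.76 ± 0.16 (adjusted p = 0.121 by edgeR, 0.0102 by DESeq2). Vwf, the clotting glycoprotein stored in Weibel-Palade bodies (chromosome 6, 125546774 to 125686679), had 6.62, 11.7 and 16.7 CPM in BKO, against 2.90, 4.19 and 8.89 CPM in Cre. BKO-3 and BKO-4 lay below Cre-5, the other 4 BKO libraries above every Cre library, and the log2 fold change was 1.20 ± 0.30 (adjusted p = 0.155 by edgeR, 0.00776 by DESeq2).

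Mmrn2, the matrix protein multimerin 2 that CLEC14A and CD93 bind (chromosome 14, 34375465 to 34404287), had 19.5, 21.3 and 29.5 CPM in BKO, against 13.6, 16.03 and 20.4 CPM in Cre. Only Cre-5 reached into the BKO range of Mmrn2, and the log2 fold change was 0.51 ± 0.12 (adjusted p = 0.146 by edgeR, 0.0235 by DESeq2). Esm1 was at 111 ± 21.1 CPM in BKO, against 100.2 ± 9.67 CPM in Cre, with a log2 fold change of 0.14 ± 0.11 (adjusted p = 0.661), and BKO-1 held less of it than any Cre library. Ece1 (chromosome 4, 137862237 to 137965229) was the only member with a negative fold change, at 530 ± 37.5 CPM in BKO, against 585 ± 50.7 CPM in Cre. All 6 BKO libraries lay below the Cre mean for Ece1, with a log2 fold change of -0.14 ± 0.064 (adjusted p = 0.352), although Cre-1 was lower than 5 of them. Edn1 and Ece1, of the same hormone pathway, had fold changes of opposite sign. That of Ece1 was not called, and the difference between the 2 genes was not tested.

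All 7 transcription factors had positive fold changes, with a median log2 fold change of 0.38. Sox18, which with Sox7 and Sox17 forms the SOXF group of vessel regulators (chromosome 2, 181669836 to 181671640, minus strand), had 10.4, 15.8 and 21.5 CPM in BKO, against 5.83, 9.33 and 14.2 CPM in Cre. Cre-5 was the only Cre library inside the BKO range, and the log2 fold change was 0.76 ± 0.20 (adjusted p = 0.156 by edgeR, 0.0181 by DESeq2). Sox7 was at 10.2 ± 1.19 CPM in BKO, against 8.21 ± 1.88 CPM in Cre (0.31 ± 0.14), and Sox17 at 3.82 ± 1.10 CPM in BKO, against 2.93 ± 0.770 CPM in Cre (0.38 ± 0.22). The difference between the SOXF genes was not tested. Of the 3 ETS-family genes, Ets1 was at 40.3 ± 8.74 CPM in BKO, against 28.1 ± 4.45 CPM in Cre (0.52 ± 0.14), and was called by DESeq2 (adjusted p = 0.0306). Erg, the most endothelium-restricted ETS factor, was at 13.6 ± 3.01 CPM in BKO, against 11.1 ± 1.63 CPM in Cre (0.29 ± 0.15), with BKO-1 below every Cre library. The other ETS gene and Tal1 had few reads and wide errors. Fli1 was at 3.20 ± 0.745 CPM in BKO, against 2.88 ± 0.767 CPM in Cre (0.15 ± 0.21). Tal1 was at 2.49 ± 0.663 CPM in BKO, against 1.75 ± 0.374 CPM in Cre (0.50 ± 0.23). Ets1 and Fli1 are also made by lymphocytes. The 8 lymphocyte markers summed to between 2.21 and 4.25 CPM in BKO and between 1.03 and 3.24 CPM in Cre, with 5 of them at or under 3 reads in every library and the 1 that was tested at a log2 fold change of 0.47, and their part in the result was not tested.

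The 5 surface glycoproteins and the 2 signalling genes were again on the positive side. Cd34, a sialomucin of capillary endothelium that fibroblasts also carry (chromosome 1, 194938819 to 194961279), had 20.8, 29.6 and 36.4 CPM in BKO, against 19.2, 20.7 and 25.1 CPM in Cre. BKO-1 alone lay inside the Cre range for Cd34, and the log2 fold change was 0.47 ± 0.11 (adjusted p = 0.146 by edgeR, 0.0281 by DESeq2). Emcn, the capillary and venous sialomucin endomucin, was at 35.8 ± 4.12 CPM in BKO, against 25.8 ± 6.48 CPM in Cre (0.47 ± 0.14; adjusted p = 0.184 by edgeR, 0.0496 by DESeq2). Podxl, a sialomucin that helps open the lumen, was at 46.3 ± 5.86 CPM in BKO, against 35.9 ± 7.26 CPM in Cre (0.36 ± 0.12). Myct1, an endothelial membrane protein, was at 11.6 ± 1.20 CPM in BKO, against 8.86 ± 2.20 CPM in Cre (0.39 ± 0.14), with Cre-1 and Cre-5 inside the BKO range. Gpihbp1, which anchors lipoprotein lipase on capillaries, was at 5.70 ± 1.16 CPM in BKO, against 5.20 ± 1.06 CPM in Cre (0.13 ± 0.17), with only 3 of 6 BKO libraries above the Cre mean. Nos3, the endothelial nitric oxide synthase, was at 13.7 ± 3.73 CPM in BKO, against 9.78 ± 2.68 CPM in Cre (0.49 ± 0.19), and Arhgef15 at 3.61 ± 1.10 CPM in BKO, against 2.43 ± 0.471 CPM in Cre (0.56 ± 0.21). Neither signalling gene was called by edgeR or DESeq2.

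**Figure D3:**
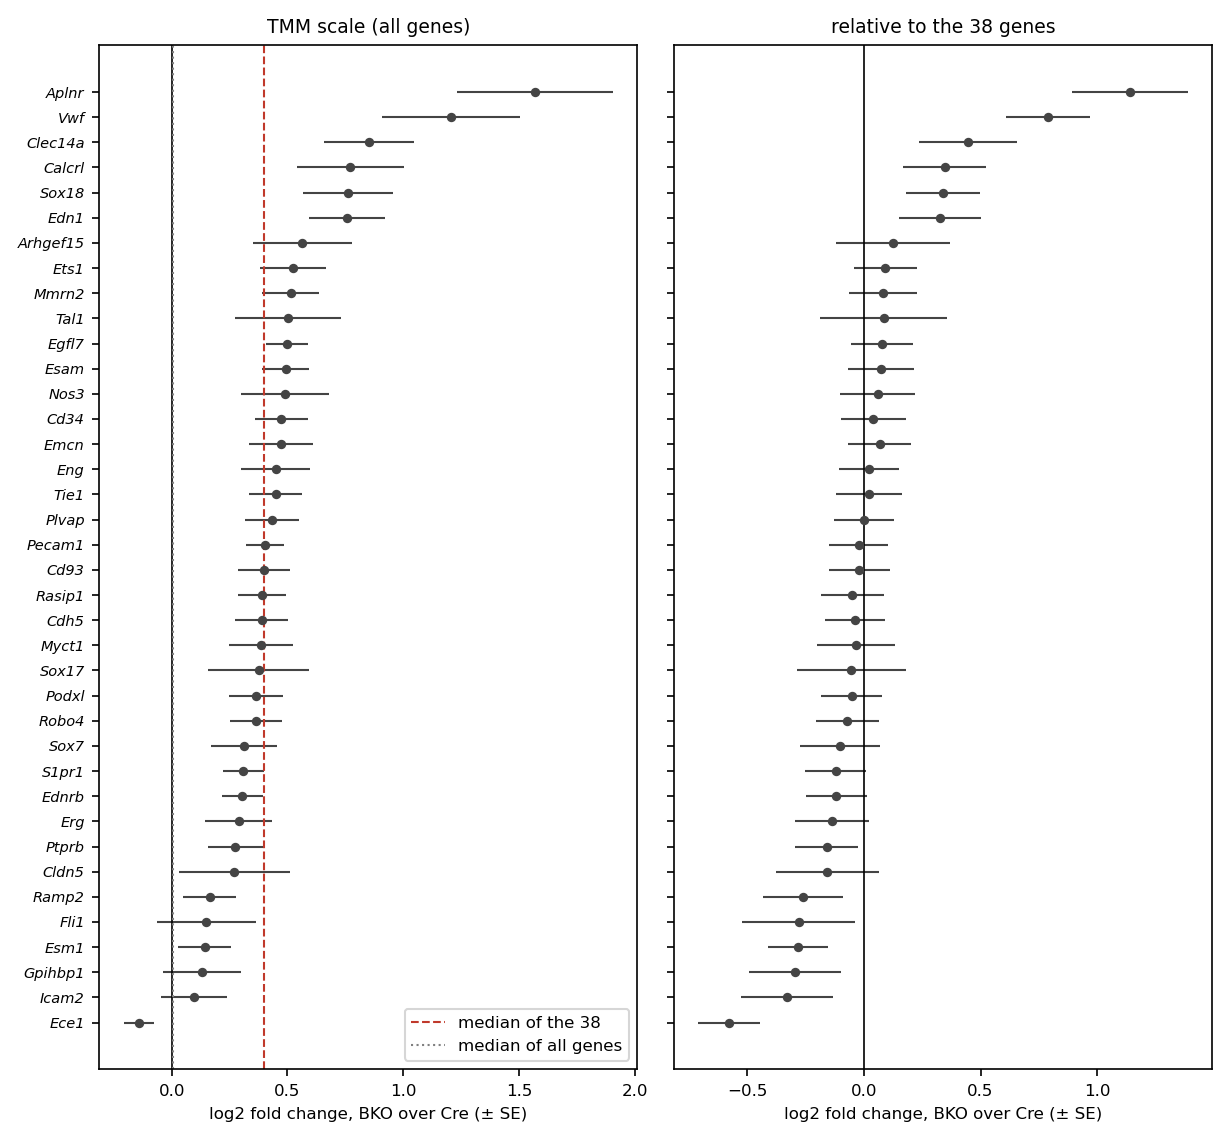
Points are log2 fold changes, BKO over Cre, with their standard errors for the 38 endothelial genes, on the scale of all genes (left) and relative to the 38 genes themselves (right). The dashed line on the left is the median of the 38 (0.40) and the dotted line that of all genes (0.0078).

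When libraries were scaled by the median ratio of the 38 genes instead of by all genes, most members differed little from each other. On that scale, which gives each gene's change relative to the endothelial list, 26 of the 38 log2 fold changes lay within 0.2 of 0. By edgeR on this scale 4 members were called higher than the rest of the list in BKO and 2 lower. Aplnr was higher by 1.14 ± 0.25 (adjusted p = 0.000223), Vwf by 0.79 ± 0.18 (adjusted p = 0.000367), Clec14a by 0.45 ± 0.21 (adjusted p = 0.0469) and Sox18 by 0.34 ± 0.16 (adjusted p = 0.0467). Ece1 was lower at -0.58 ± 0.13 (adjusted p = 0.000312) and Esm1 at -0.28 ± 0.13 (adjusted p = 0.0407). Icam2 (-0.33 ± 0.20), Gpihbp1 (-0.29 ± 0.20) and Fli1 (-0.28 ± 0.24) lay about as low as Esm1. They had wider errors and were not called. Pecam1 (-0.022), Plvap (-0.00082) and Tie1 (0.020) sat at the centre. On this scale 0.78% of all genes tested were called higher and 70.8% lower, and the median of all genes moved to -0.42, as follows from setting the endothelial list near 0. With so many genes called, adjusted p-values stayed close to the unadjusted ones of the same edgeR test (Clec14a 0.0332, Sox18 0.0331, Esm1 0.0284). The scale was also set by these 38 genes, so the calls describe the list and do not test it.

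The members largely shared the same high and low libraries. Cre-5 was the highest Cre library for 28 of the 38 members, where it was the highest for 16.3% of all genes tested. BKO-5 was the highest BKO library for 20 members and BKO-2 for 14, against 19.4% and 14.3% of all genes. BKO-1 was the lowest BKO library for 17 members (20.5% of all genes), and Cre-3 and Cre-4 were the lowest Cre library for 13 members each (13.0% and 19.7% of all genes). Of the 11 members in which exactly 1 Cre library reached the lowest BKO library, that library was Cre-5 in 9. Without Cre-5, edgeR called 15 of the 38 members higher, led by Egfl7, Esam and Pecam1, and the median log2 fold change was 0.49, in a fit that called 105 genes higher and 5 lower in all. When BKO-4 was left out, 11 members were called higher, in a fit with 135 genes higher and 127 lower. When BKO-3 was left out, Aplnr was the only member called, in a fit with 5 genes called higher in all. With any other library left out, Cre-1 included, 0 members were called, and the median lay between 0.35 and 0.49 over all 12 such fits. Ece1 and Esm1 were among the members with their highest Cre value elsewhere, in Cre-6 and Cre-1.

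Other vessel genes, in 10 lists that hold no member, also lay mostly on the positive side. These lists too were chosen with earlier results of these data known. Of 114 tested genes, 105 had a positive log2 fold change (52.8% of all genes tested), with a median of 0.34. At an unadjusted p under 0.05 there were 65 higher and 1 lower, where the shares over all genes were 8.7% and 4.66%. By edgeR 0 were called in either direction, and by DESeq2 12 were called higher, against 1.12% of the genes it adjusted. The genes named here are the 2 with the smallest p of each list. Among VEGF and angiopoietin genes the median of 11 was 0.34, with the VEGF receptor Flt1 at 0.52 ± 0.10 and the semaphorin and VEGF coreceptor Nrp2 at 0.45 ± 0.12. This list also held the 1 gene that was lower at an unadjusted edgeR p under 0.05, with a log2 fold change of -0.18. The 14 other transcription regulators and vessel-stability genes had a median of 0.32, with Heg1, a receptor that supports junctions, at 0.34 ± 0.073 and Mef2c at 0.47 ± 0.13. Caveolae and junction genes had a median of 0.35 over 14, with the junction protein Jam2 at 0.48 ± 0.12 and the caveolar coat protein Cavin3, counted under its older symbol Prkcdbp, at 0.56 ± 0.15. BMP and TGF-β genes had a median of 0.35 over 14, with the BMP target Id1 at 0.65 ± 0.15 and the ligand Bmp6 at 0.62 ± 0.19. Notch genes had a median of 0.25 over 12, with Notch4 at 0.29 ± 0.099 and the ligand Jag1 at 0.26 ± 0.11.

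Arterial and venous genes had a median of 0.58 over 9, with the venous ephrin receptor Ephb4 at 0.80 ± 0.20 and the chemokine Cxcl12 at 0.59 ± 0.17. Genes of flow response and clot control had a median of 0.44 over 9, with tissue plasminogen activator, Plat, at 0.48 ± 0.15 and the protein C receptor Procr at 0.82 ± 0.27. Among partners of the members' ligands and receptors the median of 15 was 0.27, with the sphingosine 1-phosphate exporter Spns2 at 0.94 ± 0.24 and the second endothelin receptor Ednra at 0.55 ± 0.15. Lipid-handling genes had the lowest median, 0.22 over 7, with the fatty acid binding proteins Fabp4 at 0.36 ± 0.14 and Fabp5 at 0.22 ± 0.11. Leukocyte adhesion genes had a median of 0.50 over 9, with the membrane chemokine Cx3cl1 at 0.50 ± 0.12 and P-selectin, Selp, at 1.94 ± 0.59.

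**Figure D4:**
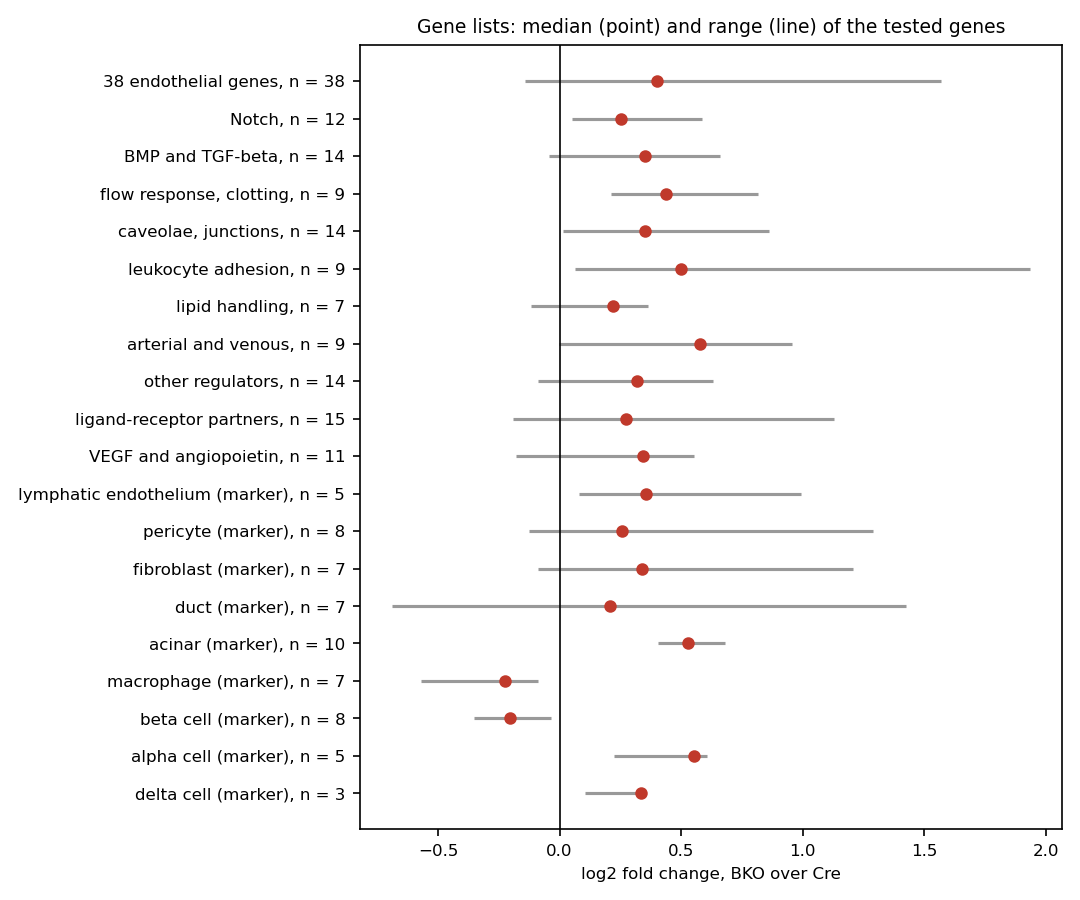
Points are the median and lines the range of log2 fold changes (BKO over Cre) of the tested genes in the endothelial list, 10 other vessel lists and 9 lists of cell-type markers. Most lists lie right of 0, and macrophage and β-cell markers lie left of it.

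Markers of other cell types differed between the groups to varied degrees, and apart from the fits with pericyte and acinar covariates their part in the endothelial differences was not tested. Summed pericyte markers, 8 of 9 of them tested, ran from 60.0 to 83.9 CPM in BKO and from 53.7 to 71.4 CPM in Cre, with a median log2 fold change of 0.26. Summed fibroblast markers (7 of 7 tested) ran from 23.2 to 61.2 CPM in BKO and from 13.8 to 56.6 CPM in Cre, with a median of 0.34. Summed acinar markers ran from 1467 to 5281 CPM in BKO and from 238 to 6728 CPM in Cre, and all 10 had positive fold changes, with a median of 0.53, above that of the endothelial list. Duct markers (7 of 7 tested) ran from 1631 to 2797 CPM in BKO and from 1921 to 2498 CPM in Cre. Their median was 0.21, with 4 positive and 3 negative. Lymphatic endothelial markers (5 of 7 tested, with Ccl21a at 0 reads) ran from 95.2 to 123 CPM in BKO and from 83.6 to 99.3 CPM in Cre, with a median of 0.35. Macrophage markers (7 of 8 tested) all had negative fold changes, with a median of -0.22. Platelet markers, of a lineage that also makes Vwf and Tal1, ran from 3.48 to 6.36 CPM in BKO and from 3.89 to 5.24 CPM in Cre. Only 3 of these 6 were tested, with a median of -0.070, 1 positive and 2 negative. The 8 β-cell markers all had negative fold changes (median -0.20) and the 5 α-cell markers positive ones (median 0.55). The 3 δ-cell markers were also positive, with a median of 0.33. The 4 globin genes and the adipocyte gene Lep had 0 reads in every library. With the mean acinar marker level as a covariate the endothelial median was 0.41, with 37 positive.

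Of the 38 members, 15 overlap another annotated gene, 13 of them on the opposite strand, and no source used here says whether reads were counted by strand. Reads of the shared parts cannot be assigned with certainty for these, among them Egfl7 (Agpat2 and Mir126b on the opposite strand), Eng (Fpgs), Plvap (Gtpbp3), Nos3 (Atg9b), Esm1 (Gzmk) and Edn1 (Gm47118). Pecam1, Esam, Aplnr, Clec14a, Mmrn2, Tie1, Vwf and Sox18 overlap no annotated gene.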

How the data were processed

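Islet RNA was extracted with TRIzol and sequenced in paired ends, per the labels' protocols. The submitters' processing notes name HISAT2 2.0.5, HTSeq and mm10. The sources used here give neither the annotation nor the strand setting of HTSeq. What the authors deposited for each sample is a file of raw counts by gene symbol. Its 5 summary lines (reads with no gene), 34.7% to 45.8% of a library, entered neither library sizes nor tests. A series-wide table of 12 sample columns, which share 1 fixed total, was not used.

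The main test was edgeR 4.0.16 in R 4.3.3 (filterByExpr, TMM, glmQLFit with robust shrinkage, glmQLFTest), with Benjamini-Hochberg adjustment over 13583 genes at 0.05. Fold changes are BKO over Cre with standard errors from that test. DESeq2 1.42.0 (all genes) and limma-voom with quality weights for each library (limma 3.58.1) were alternatives. Others were upper-quartile and RLE factors, TMM computed without the acinar markers, scaling on the endothelial list, other count filters and no robust shrinkage. Further fits used a replicate block, acinar or pericyte marker scores (mean log2 of CPM plus 0.5) as covariates, and each library left out. The script was tested on simulated data. No pair of replicates agreed within counting noise (chi-square over degrees of freedom between 5.08 and 30.0).

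Lengths, coordinates and overlaps come from GENCODE M21 (GRCm38, which is mm10) and sequences from RefSeq. The members and lists were chosen with earlier results of these data known. All 38 members are named, with library values for the 12 with the smallest p and any whose groups do not overlap, and of each other list the 2 genes with the smallest p. In the other lists 4 symbols were matched through older names.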

Additional observations from a re-analysis of the deposited data

Results flagged for a closer look

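In 64 genes and 2 groups of 6 libraries each (128 sets of values), 9 sets had a highest or lowest library that stood apart from the other 5 by Dixon's 95% criterion, which sets its gap to the next library against the group's range. Chance flags about 1 in 20 such sets. In 6 of the 9 the library was Cre-5, as the highest of the Cre libraries, and the reason was not tested. Among endothelial members, Ets1 was at 36.5 CPM in Cre-5 and at most 28.5 CPM in the other Cre libraries, and Nos3 at 14.8 CPM in Cre-5 and at most 9.93 CPM in the others. Among the other vessel genes, Cre-5 held 23.0 CPM of Jag1 (next 17.7), 6.17 CPM of Prkcdbp (next 4.05), 15.1 CPM of Ephb4 (next 10.02) and 33.1 CPM of Nrp2 (next 24.2). Cldn5 was at 7.18 CPM in BKO-5 and at most 4.50 CPM in the other BKO libraries. BKO-3 was the lowest BKO library for Icam2, at 3.93 CPM (next 5.48), and for Mef2c, at 7.13 CPM (next 9.31).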

How the results depend on the processing

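The median log2 fold change of the endothelial list was between 0.35 and 0.49 when any 1 library was left out, and 37 members were positive in each of those fits. The number of members called higher then lay between 0 and 15, and that of members called lower was 0. Over all genes, between 0 and 135 were called higher and between 0 and 127 lower, and in the other vessel lists between 0 and 12 higher. DESeq2 called 160 genes higher and 54 lower, 15 members and 12 genes of the other lists among the higher. With scaling on the endothelial list 106 genes were called higher and 9623 lower, 4 and 2 members among them, and 7 and 26 genes of the other lists, and the members' median was -0.021. By construction of that scaling, which sets the list near 0, 20 members turned negative: Pecam1 -0.022, Cdh5 -0.038, Plvap -0.00082, Erg -0.14, Robo4 -0.071, Ptprb -0.16, Esm1 -0.28, Cldn5 -0.16, Fli1 -0.28, Sox17 -0.054, Sox7 -0.10, Ednrb -0.12, Cd93 -0.020, Ramp2 -0.26, Icam2 -0.33, S1pr1 -0.12, Gpihbp1 -0.29, Rasip1 -0.050, Myct1 -0.034 and Podxl -0.053. So did Notch4 -0.13, Jag1 -0.16, Fabp4 -0.051, Fabp5 -0.21 and Heg1 -0.092 of the other lists. With the pericyte score as a covariate, Cldn5 (-0.092), Fli1 (-0.20), Sox17 (-0.064), Icam2 (-0.047) and Gpihbp1 (-0.018) turned negative, and the cause was not tested. With the replicate number as a block, edgeR called 292 genes higher and 72 lower, 21 members and 26 genes of the other lists among the higher. No label says that same-numbered libraries were paired, and not every pair deviated together: their deviations from the group means correlated between -0.079 and 0.28, above 0.1 in 4 of 6 pairs, and 4 of 6 matched best with their own number. RLE, upper-quartile and acinar-free scaling, both count filters, limma-voom, no robust shrinkage and the acinar score called 0 members. The strict filter, at least 10 reads in every library, left out Aplnr. Standard errors ran from 0.064 for Ece1, the member with the most reads, to 0.34 for Aplnr, which had 8 reads in its lowest library, and that of Vwf, with 11.5 CPM in BKO, against 4.99 CPM in Cre, was 0.30.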

Other observations

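Adhesion genes of activated and postcapillary endothelium, picked after their values were seen, spread widely between BKO libraries. The leukocyte adhesion list that holds such genes ran from a log2 fold change of 0.062 to 1.94 over 9 tested genes, with a median of 0.50. P-selectin, Selp, which is stored with von Willebrand factor in Weibel-Palade bodies, was at 78.2 ± 47.0 CPM in BKO, against 20.4 ± 16.9 CPM in Cre islets (SD, 6 libraries each), with a log2 fold change of 1.94 ± 0.59. Its BKO libraries ran from 20.03 CPM in BKO-3 to 144 CPM in BKO-5, and its Cre libraries from 7.70 CPM in Cre-6 to 51.9 CPM in Cre-5. E-selectin, Sele, was at 20.3 ± 12.1 CPM in BKO, against 6.33 ± 5.72 CPM in Cre (1.68 ± 0.61), and the venular chemokine receptor Ackr1 at 8.36 ± 5.58 CPM in BKO, against 2.44 ± 2.03 CPM in Cre (1.77 ± 0.64). Vcam1 was at 15.0 ± 7.65 CPM in BKO, against 7.38 ± 3.23 CPM in Cre (1.03 ± 0.39), and Icam1 at 65.4 ± 20.7 CPM in BKO, against 46.4 ± 8.28 CPM in Cre (0.49 ± 0.20). For Sele, Ackr1, Vcam1 and Icam1, BKO-2 and BKO-5 were the 2 highest BKO libraries, as they were for most endothelial members.

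A venous and an arterial gene were also picked after their values were seen, from a list of 9 tested arterial and venous genes that ran from -0.0024 to 0.96. The venous transcription factor Nr2f2 was at 3.99 ± 1.21 CPM in BKO, against 2.40 ± 1.09 CPM in Cre (0.73 ± 0.27), and the arterial gap junction gene Gja4 at 5.58 ± 2.42 CPM in BKO, against 2.87 ± 1.22 CPM in Cre (0.96 ± 0.31). None of these 7 genes was called by edgeR (adjusted p from 0.213 to 0.322), and of them DESeq2 called Selp (adjusted p = 0.0497).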
